A study of Mus musculus with 11 samples.

Results

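The erythropoietin, Kit and thrombopoietin pathways were followed in embryonic mouse hearts through 7 genes: the ligands *Epo*, *Kitl* and *Thpo*, the receptors *Epor* and *Kit*, and the effectors *Bcl2l1* and *Pim1*. They were chosen by name, as genes of these pathways, and all 7 were found by their Ensembl identifiers among the 55487 genes of the count files. RNA-seq had been run on isolated hearts of the B6;129P2-Pde2A tm1Dgen line at E14.5, with 1 library from each of 5 Pde2A-/- and 6 Pde2A+/+ embryos. The knockout is constitutive, so that every cell of the embryo lacks the gene and a change in the heart can begin elsewhere in the embryo. The embryos were alive at collection, came from crosses of heterozygous parents and are labelled with no treatment. Both sexes were used, and the sources used here do not give the sex, litter or batch of single hearts.

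Erythropoietin (EPO) binds its receptor EPOR on erythroid progenitors, the kinase JAK2 phosphorylates STAT5, and STAT5 raises genes such as *Bcl2l1*, *Pim1* and *Cish*. Stem cell factor, the product of *Kitl*, activates the receptor tyrosine kinase KIT on blood progenitors, mast cells, melanocytes and some cells of the heart. Thrombopoietin, the product of *Thpo*, is made mainly in the liver and acts on megakaryocytes and blood stem cells. At this age the fetal liver makes most red cells and passes them to the circulation, so that blood is part of what an isolated heart holds.

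The libraries held 35865537 to 42835382 reads counted on genes in their own orientation, and these totals did not differ detectably between genotypes (exact permutation test, two-sided, p = 0.87). The targeted gene *Pde2a* had 7 counts over all 11 hearts and could not check the genotype labels. All 10 cardiomyocyte markers were present at 1 CPM or more in Pde2A+/+ hearts. Transcripts of 11 hepatocyte markers summed to 45.4 CPM in Pde2A-/- replicate D and to 41.5, 47.9 and 121 CPM in Pde2A+/+ replicates H, 11 and E, against 3.78 to 7.58 CPM in the other hearts. Omitting these 4 hearts leaves fewer hearts to test, and the genes that rose went from 2160 to 482 and those that fell from 1372 to 50. Pde2A+/+ replicate 7 stood apart in blood progenitor markers, 5 of which rose without it against 2 with it. Levels are given in CPM, counts scaled to library size after TMM normalization, as mean ± SD over 5 and 6 hearts. Genes are compared with one another only in RPKM, CPM per kilobase of annotated exon. "Rose" and "fell" refer to an adjusted p under 0.05 in edgeR's quasi-likelihood test across the 24177 genes with at least 10 counts, with Benjamini-Hochberg adjustment.

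In Pde2A-/- hearts 4 of the 7 genes rose, *Epor*, *Kit*, *Bcl2l1* and *Pim1*, where 8.93% of all genes tested rose. *Kitl* fell, as did 5.67% of the genes tested. *Thpo* did not pass the test and *Epo* had too few counts to be tested. One of the 7, *Epor*, rose by at least 2-fold, which 2.21% of the genes tested did. For each of the 5 genes that passed, every Pde2A-/- heart lay on the same side of all Pde2A+/+ hearts, as it did for 5.38% of the genes tested in the higher and 3.11% in the lower direction. Without the 4 hearts with hepatocyte transcripts, 4 Pde2A-/- against 3 Pde2A+/+ hearts, 2 of the 7 rose, *Epor* and *Bcl2l1*, and 0 fell. None of the 7 genes lies on chromosome 7, which holds *Pde2a*. These RNAs come from a whole heart, and fewer cells of a type cannot be told apart from less RNA per cell.

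Per kilobase of exon, the order of the genes from high to low was *Pim1*, *Bcl2l1*, *Kitl*, *Kit*, *Epor*, *Thpo* and *Epo* in both genotypes. In Pde2A+/+ hearts *Pim1*, *Bcl2l1* and *Kitl* had means of 12.5 ± 1.41, 10.5 ± 0.70 and 9.98 ± 0.84 RPKM with overlapping ranges, while *Kit* at 3.64 ± 0.14 and *Epor* at 1.11 ± 0.18 RPKM each stood clear of their neighbours. In Pde2A-/- hearts *Pim1*, *Bcl2l1* and *Kitl* were at 24.8 ± 6.61, 13.2 ± 0.73 and 7.71 ± 0.78 RPKM without overlap, and *Kit* at 5.73 ± 1.07 and *Epor* at 5.44 ± 0.99 RPKM overlapped. *Thpo* was below 0.08 RPKM in every heart.

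**Figure D1:**
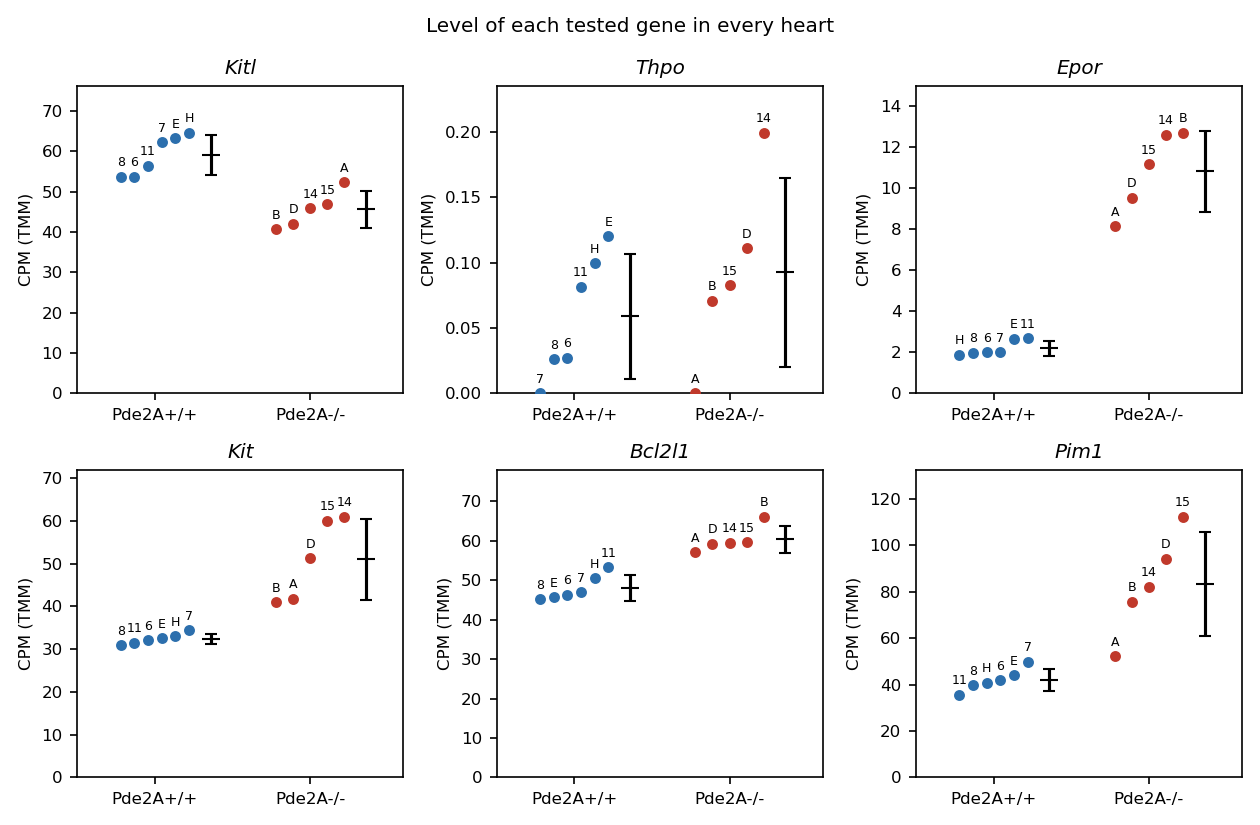
Level of each tested gene in every heart, in CPM (vertical axes start at 0; points are hearts with their replicate names, in order of level within each genotype; bars show mean and SD, n = 6 Pde2A+/+ and n = 5 Pde2A-/-). *Epor*, *Kit*, *Bcl2l1* and *Pim1* were higher and *Kitl* was lower in every Pde2A-/- heart than in every Pde2A+/+ heart, and *Thpo* overlapped.

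The promoters of the 4 genes that rose are shown. The windows are those of RefSeq on GRCm38.p6, 250 bases before to 50 after a transcription start, and all 7 genes had at least 1, with 12 windows in all. Each line gives only bases that lie before the annotated exons, 5′ to 3′ on the gene's strand, with motif matches in capitals: the GATA motif in the form AGATAA, in the form TGATAA, in the form AGATAG or in the form TGATAG, and the GC box GGGCGG, each read on both strands. The stretches are *Epor* at chr9:21963577-21963826 on the minus strand, *Kit* at chr5:75574737-75574915 on the plus strand, *Bcl2l1* at chr2:152831729-152831978 on the minus strand and *Pim1* at chr17:29490535-29490752 on the plus strand.
Epor: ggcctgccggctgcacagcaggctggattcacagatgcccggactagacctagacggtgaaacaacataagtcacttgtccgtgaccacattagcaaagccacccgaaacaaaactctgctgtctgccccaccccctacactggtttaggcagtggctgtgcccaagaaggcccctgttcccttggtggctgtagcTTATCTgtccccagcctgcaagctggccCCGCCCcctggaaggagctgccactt
Kit: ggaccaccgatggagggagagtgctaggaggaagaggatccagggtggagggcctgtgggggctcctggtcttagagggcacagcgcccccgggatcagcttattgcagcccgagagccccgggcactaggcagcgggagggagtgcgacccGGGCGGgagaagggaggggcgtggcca
Bcl2l1: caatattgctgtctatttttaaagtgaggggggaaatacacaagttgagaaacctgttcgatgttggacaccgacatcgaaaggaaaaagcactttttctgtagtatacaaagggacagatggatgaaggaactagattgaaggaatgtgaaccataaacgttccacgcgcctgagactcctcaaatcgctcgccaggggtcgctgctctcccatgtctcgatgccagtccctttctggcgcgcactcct
Pim1: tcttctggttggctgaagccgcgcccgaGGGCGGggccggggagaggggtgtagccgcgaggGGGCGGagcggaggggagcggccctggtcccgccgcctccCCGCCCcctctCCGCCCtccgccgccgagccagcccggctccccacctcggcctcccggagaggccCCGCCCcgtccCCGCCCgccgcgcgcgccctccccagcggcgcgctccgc

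The *Epor* stretch holds 1 GATA match, from 54 to 49 bases before the start, and 1 GC box, from 26 to 21 bases before it. On either strand, a GATA match is present in 29.8% and a GC box in 35.7% of all 32851 promoter windows. These windows are 300 bases long and so longer than every stretch printed. The *Kit* stretch holds 1 GC box, the *Pim1* stretch 6, and the *Bcl2l1* stretch, 1 of 3 windows of that gene, neither motif. Another *Bcl2l1* window, around a start at position 152828489 of chromosome 2, holds a GATA match 41 to 36 bases before that start. Neither motif was confined to the genes that rose. A GC box is also in windows of *Kitl*, which fell, and of *Thpo*, and a GATA match is in a window of *Epo*. The STAT motif TTCNNNGAA, found in 8.30% of all windows, was in no window of the 7 genes, and the hypoxia response core ACGTG, found in 19.6%, was in 1 window of *Pim1* alone. These are matches of letters within short windows and say nothing of binding or of elements outside them.

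Of the ligands, *Epo*, which the fetal liver and later the kidney make, was all but undetected. *Epo* (ENSMUSG00000029711, chromosome 5, 137483020 to 137533242) had 1 read in Pde2A-/- replicate A and 0 in the other 10 hearts. A count of 0 allows up to 3 reads per heart, so that a difference was not detectable at this depth. Its annotated exons share 104 bases, 12.2% of their length, with *Gnb2* on the same strand, and a read on both genes is counted for neither.

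The hypoxia-inducible factors and the prolyl hydroxylases that mark them for degradation are known regulators of the *Epo* gene, and 3 of 9 such genes rose and 1 fell, with a median log2 fold change of 0.16 against −0.02 over all genes tested. *Egln3*, a prolyl hydroxylase that is itself induced by hypoxia, was at 43.1, 64.1, 130.7, 180.0 and 220.6 CPM in Pde2A-/- replicates A, B, 14, D and 15, and between 24.4 and 42.7 CPM in Pde2A+/+ hearts, with a log2 fold change of 1.98 (SE 0.35, adjusted p = 0.0032). Replicate A was just above the highest Pde2A+/+ heart, and replicate 15 was far above it. *Egln1* rose by 0.66 and *Arnt*, the common partner of the factors, by 0.30 on the log2 scale, while *Hif1a* fell by 0.36. *Egln1* did not pass without Pde2A-/- replicate 14, 15 or D (adjusted p between 0.0558 and 0.0638), nor *Arnt* without replicate D (adjusted p = 0.0545). *Epas1* was at 82.9 ± 4.73 against 74.2 ± 10.2 CPM and did not pass. None of the 9 passed as higher without the 4 hearts with hepatocyte transcripts, and *Egln3* then had a log2 fold change of 2.10 with an adjusted p of 0.0783.

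*Kitl* (ENSMUSG00000019966, chromosome 10, 100015630 to 100100416), which encodes stem cell factor, was the member that fell. It was at 52.4, 40.7, 45.9, 42.1 and 46.9 CPM in Pde2A-/- replicates A, B, 14, D and 15, and in Pde2A+/+ hearts the lowest value was 53.6, the median 59.3 and the highest 64.5 CPM. The genotypes did not overlap, though only 1.26 CPM lay between the highest Pde2A-/- and the lowest Pde2A+/+ heart. The means were 45.6 ± 4.59 and 59.0 ± 4.96 CPM, 0.77-fold, with a log2 fold change of −0.37 (SE 0.07, adjusted p = 0.0070). It was −0.28 and did not pass without the 4 hearts with hepatocyte transcripts (adjusted p = 0.154).

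*Thpo* (ENSMUSG00000022847, chromosome 16, 20724454 to 20734511) was near the limit of detection. It had 0, 3, 8, 4 and 3 reads in Pde2A-/- replicates A, B, 14, D and 15 and between 0 and 5 in Pde2A+/+ hearts, 18 and 14 reads in all. The genotypes overlapped, and the 95% interval of the log2 fold change reached from −0.93 to 2.14, 0.53-fold to 4.40-fold (estimate 0.61, adjusted p = 0.62; 2.13, adjusted p = 0.32, without the 4 hearts with hepatocyte transcripts), and no difference was detectable at this depth. Its exons share 239 bases with *Chrd* on the opposite strand, whose reads the stranded count keeps apart.

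*Epor* (ENSMUSG00000006235, chromosome 9, 21958897 to 21963506, minus strand), the receptor of EPO, changed most of the 7 genes. It was at 8.14, 12.7, 12.6, 9.52 and 11.2 CPM in Pde2A-/- replicates A, B, 14, D and 15. In Pde2A+/+ hearts the lowest value was 1.89, the median 2.0 and the highest 2.69 CPM. The lowest Pde2A-/- heart thus had 3.03 times the level of the highest Pde2A+/+ heart. With means of 10.8 ± 1.97 and 2.21 ± 0.37 CPM, *Epor* rose 4.90-fold (95% interval 3.94 to 6.08), a log2 fold change of 2.29 (SE 0.14, adjusted p = 2.25e-06), and it ranked 6 of the 24177 genes by p-value. Omitting any single heart gave log2 fold changes from 2.23 to 2.38, all of which passed, and without the 4 hearts with hepatocyte transcripts it was 2.48 (adjusted p = 0.000553).

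Beside *Epor*, the markers of erythroid cells rose in the same hearts. Of the 19 erythroid markers found in the files, 14 rose, each by at least 2-fold, 1 fell and 4 did not pass. *Hemgn*, a nuclear protein of erythroid precursors, rose by 4.94 on the log2 scale, *Rhag*, of the Rhesus complex of the red cell membrane, by 4.40, and *Ermap*, an erythrocyte membrane protein, by 4.05. The globins, the main product of maturing red cells, did not rise, and *Hbb-bt* fell by 1.43 on the log2 scale, a call lost without the 4 hearts with hepatocyte transcripts, when 0 of the erythroid markers fell and 14 rose. *Hbb-bs* was at 1931 ± 413 against 2747 ± 1485 CPM and *Hba-a1* at 1214 ± 272 against 1728 ± 822 CPM, and neither passed. Without globins the markers summed to 862 to 1595 CPM in Pde2A-/- and 294 to 736 CPM in Pde2A+/+ hearts, while the 4 globins summed to 2987 to 5076 and 3104 to 12743 CPM.

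Pde2A-/- replicate A had the lowest sum, 862 CPM, and the lowest *Epor* of its genotype, and replicate B had the highest of both. Between Pde2A+/+ replicate 11 and Pde2A-/- replicate A, *Epor* went from 2.69 to 8.14 CPM. *Hemgn* went from 2.01 to 31.4 CPM, *Rhag* from 1.66 to 16.1 CPM and *Ermap* from 4.35 to 30.9 CPM. These 3 markers were named because their changes between genotypes were among the largest of the list, and that choice favours such a difference. The sum differed less between these hearts, 736 against 862 CPM, and includes *Alas2*, an enzyme of heme synthesis that did not pass and reached 360 CPM in Pde2A+/+ hearts. What part the number or stage of erythroid cells had in the level of *Epor* was not tested.

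**Figure D2:**
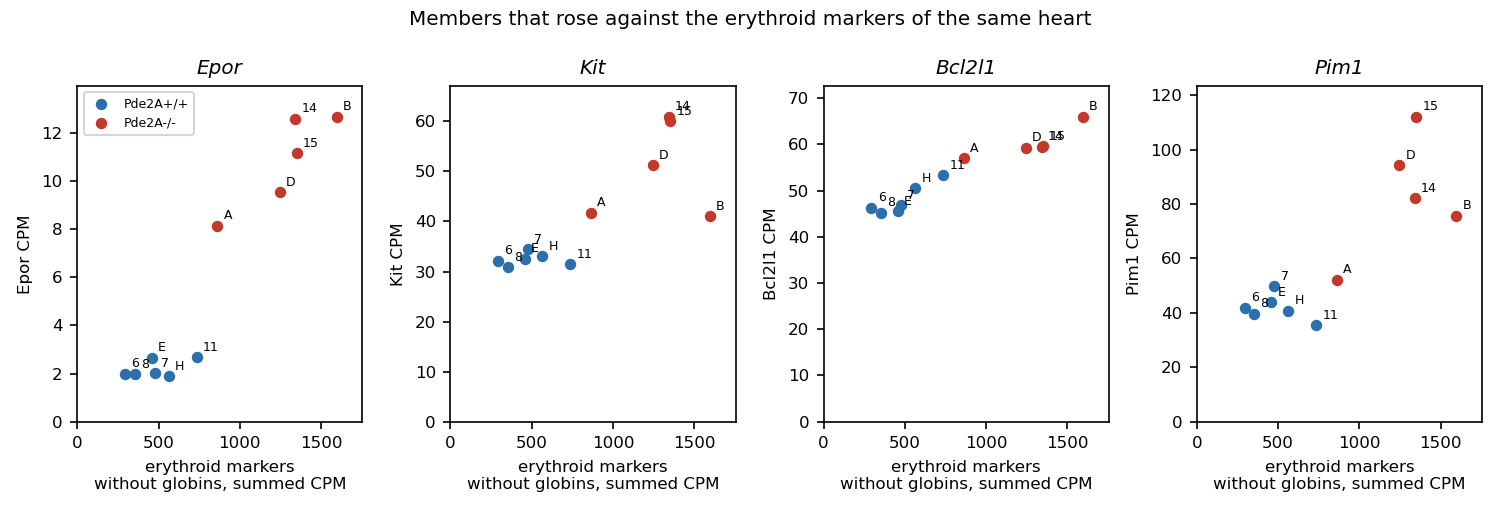
Level in CPM of the 4 genes that rose (vertical axes) against the summed CPM of the erythroid markers without globins (horizontal axes) in each heart, with replicate names; both axes start at 0. *Bcl2l1* increased with the sum across both genotypes, and *Epor* was higher in every Pde2A-/- heart. The Pde2A-/- hearts with the lowest and the highest sum, replicates A and B, had the lowest *Kit* values of their genotype, 41.8 and 41.0 CPM.

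*Kit* (ENSMUSG00000005672, chromosome 5, 75574916 to 75656722), the receptor of stem cell factor, rose as its ligand fell. It was at 41.8, 41.0, 61.0, 51.2 and 60.1 CPM in Pde2A-/- replicates A, B, 14, D and 15, and its lowest, median and highest values in Pde2A+/+ hearts were 30.9, 32.4 and 34.4 CPM. The Pde2A+/+ hearts lay within a narrow band, with an SD of 3.81% of the mean, against 18.8% in Pde2A-/- hearts. The means were 51.0 ± 9.57 and 32.4 ± 1.24 CPM, a 1.57-fold rise with a log2 fold change of 0.65 (SE 0.10, adjusted p = 0.0012). The size stayed between 0.58 and 0.72 whichever single heart was omitted, and was 0.65 without the 4 hearts with hepatocyte transcripts, where it did not pass (adjusted p = 0.0782).

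Per kilobase of exon, *Kit* was below its ligand in every heart. The ratio of *Kit* to *Kitl* in RPKM was 0.529, 0.669, 0.881, 0.808 and 0.850 in Pde2A-/- replicates A, B, 14, D and 15, and 0.340, 0.369 and 0.397 were its lowest, median and highest values in Pde2A+/+ hearts. The ratio was thus higher in every Pde2A-/- heart, with no overlap, which follows from the separation of each of the genes. The ratio uses the combined length of all annotated exons of each gene, 8911 bases for *Kit* and 5911 for *Kitl*, and so understates a gene whose long isoforms are not used.

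**Figure D3:**
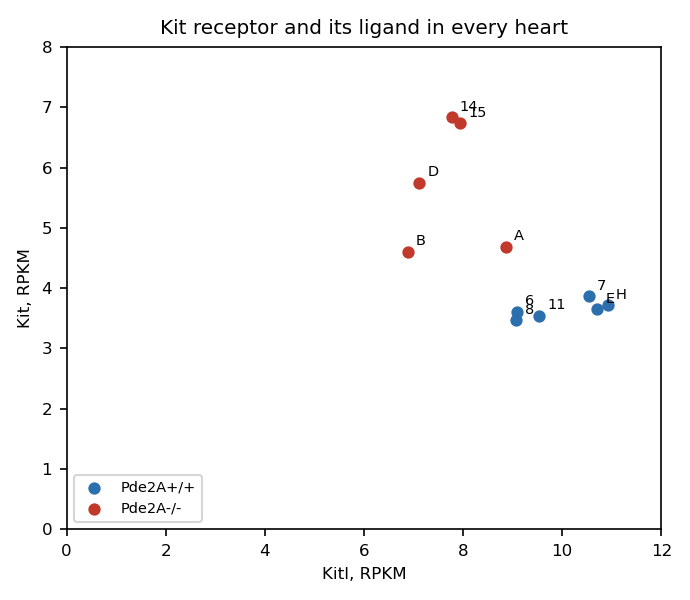
*Kit* (vertical axis) against *Kitl* (horizontal axis) in each heart, both in RPKM from 0, with replicate names. The 5 Pde2A-/- hearts lie above and to the left of the 6 Pde2A+/+ hearts.

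Markers of mast cells, melanocytes and blood progenitors, cells that carry KIT, mostly did not pass the test. The erythroid markers, of which 14 of 19 rose, are described above with *Epor*. What part any of these cells had in the level of *Kit* was not tested. None of the 6 mast cell markers tested rose, and *Cpa3*, a mast cell protease, fell by 1.73 on the log2 scale, from 3.73 ± 1.70 to 1.13 ± 0.25 CPM (adjusted p = 0.0068). Without the 4 hearts with hepatocyte transcripts its log2 fold change was −1.59 and did not pass (adjusted p = 0.132). With replicate 8 of Pde2A+/+ omitted, or with DESeq2, 3 of the 6 fell. The mast cell markers summed to 7.25 to 9.60 CPM in Pde2A-/- and 5.83 to 17.1 CPM in Pde2A+/+ hearts. Of 7 melanocyte markers 1 rose, *Mlana*, by 1.38 on the log2 scale, but it passed in 2 of the 11 omissions of a single heart (adjusted p up to 0.107), and at 1.15 did not pass without the 4 hearts with hepatocyte transcripts (adjusted p = 0.259). *Mitf*, the melanocyte regulator that cardiac cells also use, was at 83.1 ± 22.5 against 67.7 ± 7.85 CPM and did not pass. Of 10 blood progenitor markers 2 rose: *Gfi1b*, a repressor of transcription within erythroid and megakaryocytic cells, by 4.35 and *Spi1*, a myeloid factor, by 0.80 on the log2 scale. That count rests on Pde2A+/+ replicate 7, without which 5 rose and the list median went from 0.05 to 0.83. *Cd34* and *Mecom*, the most abundant of the others, were at 146 ± 11.7 against 143 ± 15.6 CPM and at 39.0 ± 9.46 against 44.2 ± 2.66 CPM.

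Among 9 adaptors and feedback inhibitors of KIT signaling 3 rose, *Dok1* by 0.47, *Spred1* by 0.36 and *Spred2* by 0.29 on the log2 scale, with a list median of 0.24. DOK1 and the SPRED proteins are known to restrain RAS and ERK signaling downstream of receptor kinases. *Spred2* did not pass without Pde2A-/- replicate 14, 15 or D (adjusted p between 0.0508 and 0.0621). *Grb10*, the most abundant of the list, was at 2072 ± 91.4 against 2175 ± 166 CPM and did not pass. Of 11 receptors and ligands related to KIT and stem cell factor 3 rose: *Csf1*, the macrophage growth factor, by 0.82, its receptor *Csf1r* by 0.65 and *Pdgfra* by 0.27 on the log2 scale. In the same hearts 9 of 10 macrophage markers rose, with summed levels of 178 to 250 CPM in Pde2A-/- and 88.0 to 137 CPM in Pde2A+/+ hearts. With the 4 hearts with hepatocyte transcripts omitted 0 genes of either KIT list passed, at log2 fold changes of 0.43 for *Dok1*, 0.36 for *Spred1*, 0.31 for *Spred2*, 0.81 for *Csf1*, 0.68 for *Csf1r* and 0.24 for *Pdgfra*.

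Megakaryocytes and platelets, the cells on which thrombopoietin acts, were followed by their markers. Of 10 megakaryocyte and platelet markers tested 4 rose, *Ppbp*, a platelet chemokine, by 1.81, *Gp5* by 1.01, *Clec1b* by 0.66 and *Itgb3* by 0.33 on the log2 scale, and with the 4 hearts with hepatocyte transcripts omitted 1 did, while *Gp5* had a log2 fold change of 1.36 (adjusted p = 0.0509). *Itgb3* did not pass without any 1 of Pde2A-/- replicates 15 and D and Pde2A+/+ replicates 11, 6 and E (adjusted p between 0.0504 and 0.0727). The markers of these cells summed to 52.9 to 75.7 CPM in Pde2A-/- and 38.0 to 52.3 CPM in Pde2A+/+ hearts, with no overlap.

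Of 14 receptors of the EPOR family and its relatives 4 rose, among them the interleukin 6 family members *Osmr* by 0.71, *Il6ra* by 0.48 and *Il6st*, their shared signal chain, by 0.36 on the log2 scale. *Il6ra* did not pass without Pde2A-/- replicate 14, 15 or D (adjusted p between 0.0598 and 0.0620), nor without the 4 hearts with hepatocyte transcripts, at 0.65 (adjusted p = 0.0624). The list median was 0.19. *Ghr* and *Lifr*, abundant receptors of the list, were at 103 ± 6.71 against 92.3 ± 5.00 CPM and at 58.3 ± 3.95 against 56.1 ± 4.28 CPM and did not pass. Without Pde2A+/+ replicate 11, 7 of the 14 rose.

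*Bcl2l1* (ENSMUSG00000007659, chromosome 2, 152780668 to 152831728), which encodes the survival protein BCL-XL, rose by little in every heart. It was at 57.1, 66.0, 59.5, 59.3 and 59.6 CPM in Pde2A-/- replicates A, B, 14, D and 15. Its lowest, median and highest values in Pde2A+/+ hearts were 45.2, 46.6 and 53.3 CPM, below all of these. The means were 60.3 ± 3.37 and 48.0 ± 3.21 CPM, a 1.26-fold rise with a log2 fold change of 0.33 (SE 0.06, adjusted p = 0.0023). It was 0.39 without the 4 hearts with hepatocyte transcripts and still passed (adjusted p = 0.0156). Among Pde2A-/- hearts *Bcl2l1* was lowest in A and highest in B, as were the erythroid markers without globins. Replicates D, 14 and 15, at 59.3, 59.5 and 59.6 CPM, lay too close in *Bcl2l1* to be ordered. The Pde2A+/+ hearts with the highest values of both were 7, H and 11. The part of erythroid cells in the level of *Bcl2l1* was not tested.

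Of 19 other members of the BCL2 family 1 rose and 1 fell, beside the 8.93% and 5.67% of all genes tested that did so, with a median log2 fold change of 0.15. *Bnip3*, a mitochondrial protein induced by hypoxia, rose by 1.29 on the log2 scale, with 115, 175, 307, 310 and 457 CPM in Pde2A-/- replicates A, B, 14, D and 15 against 95.9 to 124 CPM in Pde2A+/+ hearts. Replicate A lay within the Pde2A+/+ range, and without the 4 hearts with hepatocyte transcripts *Bnip3* was at 1.17 and did not pass (adjusted p = 0.159). *Bok* fell by 0.44 on the log2 scale. The anti-apoptotic *Mcl1* was at 195 ± 11.7 against 180 ± 2.49 CPM and did not pass, and the related *Bnip3l*, at 167 ± 36.5 against 129 ± 16.2 CPM, passed only with DESeq2, with *Xist* or the style of the replicate names as covariate, or without Pde2A-/- replicate A or B. Without replicate A, 5 family members rose.

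*Pim1* (ENSMUSG00000024014, chromosome 17, 29490753 to 29496112), a survival kinase whose gene is a classical target of STAT5 and STAT3, was at 52.2, 75.7, 82.1, 94.2 and 112 CPM in Pde2A-/- replicates A, B, 14, D and 15. The Pde2A+/+ hearts had a lowest value of 35.5, a median of 41.4 and a highest of 49.8 CPM. Replicate A was 2.50 CPM above the highest Pde2A+/+ heart, and the other Pde2A-/- hearts lay well above it. The means were 83.3 ± 22.2 and 41.9 ± 4.73 CPM, a 1.99-fold rise with a log2 fold change of 0.99 (SE 0.15, adjusted p = 0.0011). It was 1.12 without Pde2A-/- replicate A, and 0.88 without the 4 hearts with hepatocyte transcripts, where it did not pass (adjusted p = 0.0851). The Pde2A-/- hearts had the same order in *Pim1* as in *Egln3* and *Bnip3*, from A over B, 14 and D to 15, which differs from their order in *Epor*. Other genes named here, among them *Foxo3*, *Pim3* and *Fcgr3*, had this order too, and what sets it was not tested. An antisense transcript, *Gm26885*, shares 488 of its exon bases, and the stranded count keeps it apart.

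Of the other Pim kinases, *Pim3* rose by 0.55 on the log2 scale, from 56.2 ± 3.51 to 82.5 ± 25.2 CPM (adjusted p = 0.0332), but passed in 2 of the 11 omissions of a single heart (adjusted p up to 0.0959). It was 0.45 without the 4 hearts with hepatocyte transcripts (adjusted p = 0.297). *Pim2* was at 4.75 ± 0.85 against 4.26 ± 0.44 CPM and did not pass.

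**Figure D4:**
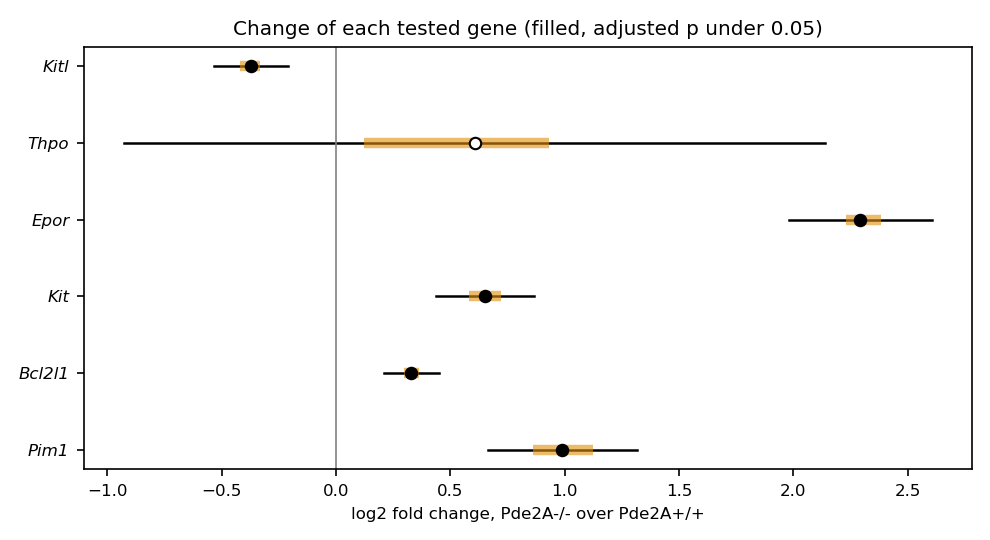
Log2 fold change of the 6 tested genes, Pde2A-/- over Pde2A+/+ (points, filled where the adjusted p was under 0.05), with 95% intervals (black lines) and the range over the 11 omissions of a single heart (orange bars). *Epor* lies farthest to the right at 2.29, *Kitl* alone lies below 0 at −0.37, and the interval of *Thpo* spans 0.

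Downstream of EPOR, the shared signal carriers moved little. *Jak2* rose by 0.21, from 45.2 ± 2.52 to 52.4 ± 2.31 CPM, and *Stat5b* by 0.35 on the log2 scale, from 68.5 ± 3.50 to 87.0 ± 13.4 CPM (adjusted p = 0.0160 and 0.0201). *Stat5a* was at 10.8 ± 0.56 against 10.3 ± 1.81 CPM and did not pass. In all, 7 of 22 genes of EPO receptor signaling rose and 1 fell, with a median log2 fold change of 0.11. The largest rise was that of *Tfr2*, a transferrin receptor that binds EPOR in erythroid cells, at 2.06, 4.44, 4.95, 3.39 and 4.68 CPM in Pde2A-/- replicates A, B, 14, D and 15 against 0.183 to 0.808 CPM in Pde2A+/+ hearts, a log2 fold change of 3.21. *Csf2rb*, the common beta chain of related cytokine receptors, rose by 1.90, *Foxo3*, a transcription factor held back by AKT, by 0.995, and the lipid phosphatase *Inpp5d* by 0.54 on the log2 scale. *Akt1* fell by 0.28 on the log2 scale and did not pass without any 1 of Pde2A-/- replicates 14, 15 or D or Pde2A+/+ replicates 6, 8 or H. *Ptpn11* and *Gab1*, the most abundant that did not pass, were at 241 ± 16.6 against 263 ± 7.26 CPM and at 173 ± 21.9 against 158 ± 13.3 CPM. With the 4 hearts with hepatocyte transcripts omitted 3 of the 22 rose, *Tfr2*, *Csf2rb* and *Inpp5d*, and 0 fell. *Jak2* and *Stat5b* then did not pass, nor did *Foxo3*, at 0.995 (adjusted p = 0.104).

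Genes known to respond to EPO or STAT5 had a higher median: 8 of 13 rose and 0 fell, and the median log2 fold change was 0.79. *Serpina3g* rose by 1.83, *Trib3*, a stress-induced pseudokinase, by 1.5, *Socs3*, a feedback inhibitor of cytokine receptors, by 0.84, and *Erfe*, the hormone by which erythroblasts lower hepcidin, by 0.83 on the log2 scale. The feedback inhibitor *Cish*, a target of STAT5, rose by 0.82, from 19.4 ± 1.86 to 34.4 ± 9.55 CPM, and *Socs2* by 0.52 on the log2 scale. *Serpina3g* did not pass without any 1 of 6 hearts, Pde2A-/- replicates 14, 15 and D and Pde2A+/+ replicates 6, 8 and H (adjusted p up to 0.0740). *Tfrc*, the transferrin receptor of iron uptake, at 169 ± 23.3 against 136 ± 25.7 CPM, and *Podxl*, at 158 ± 23.1 against 141 ± 25.5 CPM, did not pass. Several of these genes also respond to other cytokines or to stress, and without the 4 hearts with hepatocyte transcripts 2 of the 13 rose, *Socs3* at 0.75 and *Erfe* at 0.78. The median was then 0.47, with *Trib3* at 1.45 and *Serpina3g* at 1.41, and neither passed.

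**Figure D5:**
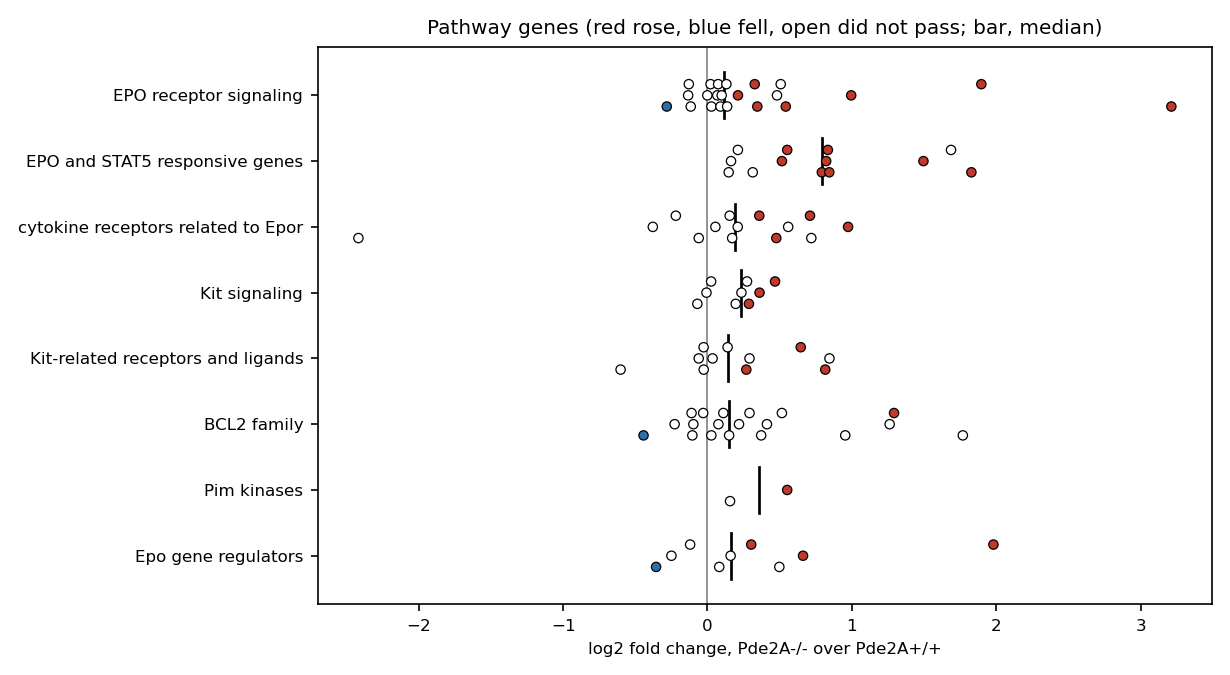
Log2 fold change of each tested gene of 8 pathway lists, Pde2A-/- over Pde2A+/+ (points; red rose, blue fell, open did not pass; black bars are list medians; vertical positions within a list only separate points). The EPO and STAT5 responsive genes have the highest median, 0.79 (0.47 without the 4 hearts with hepatocyte transcripts), and *Tfr2*, at 3.21, lies farthest to the right.

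The genes most like each member over the 11 hearts were sought among the 14024 genes whose mean reached 1 CPM, by Pearson's r of log2 CPM, which the gap between genotypes largely sets. Values of r centred within genotype are given after each in the same order, and all are descriptions without a test. For *Epor* the 5 nearest were *Icam4*, *Trim34b*, *Rtp4*, *Abcb4* and *Dmtn*, with r from 0.990 to 0.995 and centred values of 0.879, 0.746, 0.754, 0.815 and 0.786. For *Bcl2l1* they were *Gm867*, *E2f2*, *Fam210b*, *Redrum* and *Urod*, with r from 0.978 to 0.990 and centred values of 0.946, 0.946, 0.941, 0.907 and 0.885. *Icam4* and *Dmtn*, near *Epor*, encode proteins of the red cell membrane, and *Urod*, near *Bcl2l1*, an enzyme of heme synthesis. *Trim34b*, *Rtp4* and *Abcb4* ranked between *Icam4* and *Dmtn* and were not classed by cell type here. Ranked by centred values instead, the 5 nearest to *Epor* were *Dmpk*, *Rnf213*, *Stx2*, *Bcl2l2* and *Mpg*, at 0.907, 0.902, 0.901, 0.896 and 0.891. None of its 5 nearest over all hearts was among them.

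For *Kit* the nearest were *Hivep2*, *Stat3*, *Map3k12*, *Ugcg* and *Neurl3*, with r from 0.968 to 0.976 and centred values of 0.898, 0.869, 0.886, 0.894 and 0.856. For *Pim1* they were *Gstm1*, *Cln8*, *Clk3*, *Plekho2* and *Stat3*, with r from 0.975 to 0.982 and centred values of 0.936, 0.909, 0.908, 0.904 and 0.895. *Stat3*, a signal carrier of interleukin 6 type receptors, is on both lists. For *Kitl* they were *Gm19410*, *Dnajc12*, *Syk*, *Cplane1* and *Ccr2*, with r from 0.905 to 0.953 and centred values of 0.856, 0.783, 0.806, 0.754 and 0.680. Between the members themselves the centred r was highest for *Kit* with *Pim1*, 0.722, and was 0.472 for *Epor* with *Bcl2l1* and 0.224 for *Epor* with *Kit*. For *Kit* with *Kitl* it was 0.133, so that within a genotype the ligand was not lower where the receptor was higher.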

How the data were processed

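RNA-seq libraries of 11 hearts were analysed from the raw gene counts that the authors deposited, which STAR made per gene on GRCm38 without normalization or filtering; a read on more than 1 gene is in none. Counts in the gene's own orientation were used. Names, exons and positions came from GENCODE M21 (55141 of 55487 identifiers named) and promoters from RefSeq, GRCm38.p6. Reads that could not be given to a single gene made up 19.6% to 22.4% of each library.

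Genes with at least 10 counts over all hearts were fitted with edgeR 4.0.16 in R 4.3.3 (TMM, quasi-likelihood test, two-sided, Benjamini-Hochberg adjustment); the common biological coefficient of variation was 16.8%. Log2 CPM used a prior count of 2. Alternatives were DESeq2 1.42.0, DESeq2 size factors, filterByExpr, no filter, reads of both strands, globins left out, *Xist* or the style of the replicate names as covariate, a fold of at least 2, each heart left out, and, chosen after seeing the data, 4 hearts left out together. With 5 against 6 simulated hearts and 23681 genes, edgeR recovered 83 of 100 genes changed by 1 and 97 of 100 changed by 2 on the log2 scale, with 13 wrong calls. The changed genes averaged at least 10 counts per heart, so these rates do not cover genes as scarce as *Thpo*. Each simulated gene was given the usual spread of genes at its level, not its own, and fewer genes changed than were called here.

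The members and lists, written from general knowledge, were chosen with earlier results of these data known. Named list genes are the 4 largest changes that passed and the 2 most abundant that did not; *Ahsp* was not matched. A single result that the rule covers is not reported here, though counts over lists include it. For each member the 5 genes of highest correlation, genes of overlapping exons and the signal carriers were also named. For *Epor* the 5 genes of highest centred correlation were added. *Cish*, *Socs2*, *Epas1*, *Akt1*, *Alas2* and *Hbb-bt* were chosen after their values were seen. That the libraries are separate embryos rests on the replicate labels and on the study's count of hearts per genotype. The p-values set differences between genotypes against the spread between these samples.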

Additional observations from a re-analysis of the deposited data

Results flagged for a closer look

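Within the genotypes, 46 groups of hearts were tested for a heart far from the others of its genotype, over the tested members and the summed levels of the lists, and 3 stood out, where chance gives about 1 in 20 groups. *Bcl2l1* was at 66.0 CPM in Pde2A-/- replicate B, against 57.1 to 59.6 CPM in the other Pde2A-/- hearts. The genes of EPO receptor signaling summed to 2025 CPM in Pde2A-/- replicate 15, against 1939 to 1949 CPM in the others. The hepatocyte markers summed to 45.4 CPM in Pde2A-/- replicate D, against 4.77 to 7.58 CPM in the others.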

How the results depend on the processing

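*Epor*, *Kit*, *Bcl2l1* and *Pim1* rose and *Kitl* fell under all 8 other planned settings of the fit and with any 1 of the 11 hearts omitted, where log2 fold changes ranged from 2.23 to 2.38, 0.58 to 0.72, 0.30 to 0.36, 0.86 to 1.12 and −0.42 to −0.33. *Thpo* ranged from 0.12 to 0.93 with single hearts left out and was 2.13 without the 4 hearts described next, and passed in none of these. The number of members that rose was 1 and that fell was 0 at a fold change of at least 2. Leaving out together the 4 hearts with hepatocyte transcripts, a choice made after seeing the data that leaves 4 against 3 hearts, gave 2 that rose and 0 that fell, with *Kit* at 0.65, *Kitl* at −0.28 and *Pim1* at 0.88, which no longer passed. The same omission left 482 genes of all tested that rose and 50 that fell, against 2160 and 1372. With single hearts left out these numbers ranged from 1288 to 2887 and from 414 to 2165, and DESeq2 gave 2354 genes that fell. Of the 81 genes named from the lists, 21 changed their side of the threshold in at least 1 planned setting, 29 did so without the 4 hearts, and 0 reversed. No paired analysis was possible because the genotypes share no replicate name.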

Other observations

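Several marker lists outside the pathways moved in the same hearts. Of 10 endothelial markers 4 rose, among them *Flt1*, a receptor of VEGF, by 0.72, *Emcn* by 0.51 and *Pecam1* by 0.34 on the log2 scale, and *Cldn5*, a tight junction protein, fell by 0.79. Of 10 cardiomyocyte markers *Nppa*, the atrial natriuretic peptide, rose by 0.87, and *Ttn*, *Tnni1* and *Nkx2-5* fell by 0.51, 0.41 and 0.27 on the log2 scale. Among macrophage markers *Fcgr3* rose by 1.43, *Timd4* by 1.40 and the complement gene *C1qc* by 1.12 on the log2 scale. Without the 4 hearts with hepatocyte transcripts 0 endothelial markers rose and 0 cardiomyocyte markers rose or fell, at log2 fold changes of 0.68 for *Flt1*, 0.45 for *Emcn*, 0.34 for *Pecam1*, 0.96 for *Nppa*, −0.43 for *Ttn*, −0.40 for *Tnni1* and −0.33 for *Nkx2-5*. Of the macrophage markers 7 still rose, and *Timd4* was at 1.77 and did not pass (adjusted p = 0.0832).

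The hepatocyte genes *Alb* and *Afp* were at 2.37 ± 5.13 against 13.3 ± 18.1 CPM and at 4.46 ± 9.33 against 14.1 ± 19.2 CPM, and the fetal liver is known to make red cell precursors and *Thpo*. The 4 hearts with hepatocyte transcripts were 1 Pde2A-/- and 3 Pde2A+/+ hearts. *Thpo* had 4 reads in Pde2A-/- replicate D, against 0, 3, 8 and 3 reads in Pde2A-/- replicates A, B, 14 and 15. It had 3, 4 and 5 reads in Pde2A+/+ replicates 11, H and E, against 0, 1 and 1 reads in Pde2A+/+ replicates 7, 6 and 8. The part of the hepatocyte transcripts in the results was not tested. The reads counted limit *Thpo* and *Epo* most, with 32 and 1 reads over the 11 hearts, and *Epor* has between 73 and 537 reads per heart.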
